A study of Homo sapiens with 6 samples.

Results

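The 53 genes described here encode the proteins that license origins of DNA replication, open the double helix and copy it, together with factors that restore methylation and chromatin behind the fork. They were chosen by gene symbol, and all 53 were found among the 17631 genes of the expression tables. The tables came from RNA-seq of the human line MDA-MB-231, established from a triple-negative breast cancer and treated for 24 h with vehicle (3 libraries) or with 30 µM PDBAG1 (3 libraries). PDBAG1 is a synthetic peptide in which a stretch of the metabolic enzyme GPD1 is joined to a cell-penetrating sequence. The labels give no genotype or age and do not say whether the libraries of a group came from separate cultures, so p values measure the spread between these libraries only. The values are in TPM, a transcript level that is corrected for length and scaled to the same total in every library. This unit does not carry the number of reads, so the depth is unknown and no counting error can be given.

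Replication is prepared in G1 phase, when the origin recognition complex (ORC) together with CDC6 and CDT1 loads rings of the MCM2-7 helicase onto DNA, a step called licensing. At the start of S phase the kinase CDC7 with its activator DBF4, followed by CDC45 and the GINS complex, turns the loaded ring into the active CMG helicase. Polymerase alpha-primase then starts each new strand, the clamp loader RFC places the ring-shaped clamp PCNA, and polymerases delta and epsilon extend the strands. Many of these genes are transcribed periodically, and E2F transcription factors acting on their promoters are the best known regulators.

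The libraries carried the markers of the line. VIM had a mean level of 4270.0 TPM with vehicle and 5877 TPM with PDBAG1, and CD44 and AXL were above 300 TPM in both groups, whereas PGR was below 0.1 TPM and CDH1 below 1 TPM. ESR1 was at 2.26 and 2.61 TPM and EPCAM at 5.14 and 5.27 TPM in the vehicle and PDBAG1 groups. The 7 markers of other cell types that could be read (PTPRC, CD14, PECAM1, VWF, COL1A1, ADIPOQ and ALB) summed to 16.0 to 17.3 TPM with vehicle and 19.8 to 22.1 TPM with PDBAG1. Of these the endothelial marker PECAM1 rose, from a mean of 3.94 to 8.64 TPM, whereas VWF, of the same cell type, and ALB stayed below 0.1 TPM, and the leukocyte marker PTPRC was at 1.08 and 1.04 TPM. The part of such cells in the replication values was not tested. Each library held 12392 to 12611 genes at 1 TPM or more.

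The replication genes were lower in PDBAG1-treated cells across every functional class. All 53 passed the expression filter (at least 1 TPM in 3 or more libraries) and all 53 had a negative mean difference. By limma on log2(TPM + 1), 47 of the 53 fell at a Benjamini-Hochberg adjusted p under 0.05 over the 12582 genes tested, and 0 rose. Over all genes tested, 15.9% fell and 21.7% rose at an adjusted p under 0.05, 37.6% in all. At an unadjusted p under 0.05, 49 of the 53 were lower and 0 higher. The share over all genes tested was not counted at this threshold. It cannot be below the 15.9% lower and 21.7% higher at the adjusted one. The median log2 fold change of the 53 was -0.36, against 0.03 for all genes tested. In 49 of the 53 genes the 3 PDBAG1 libraries all lay below the 3 vehicle libraries, a pattern seen in 20.2% of all genes tested (27.2% in the opposite direction). The falls were moderate in size, since 3 genes (GINS2, MCM10 and TIPIN) also passed the 1.5-fold limit that the study used for its own gene selection, against 0.477% of all genes tested with such a fall and 2.86% with such a rise, and 0 reached a 2-fold fall. In a ranking of the 12582 genes from the most negative log2 fold change upwards, 28 of the 53 lay among the 500 lowest.

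**Figure D1:**
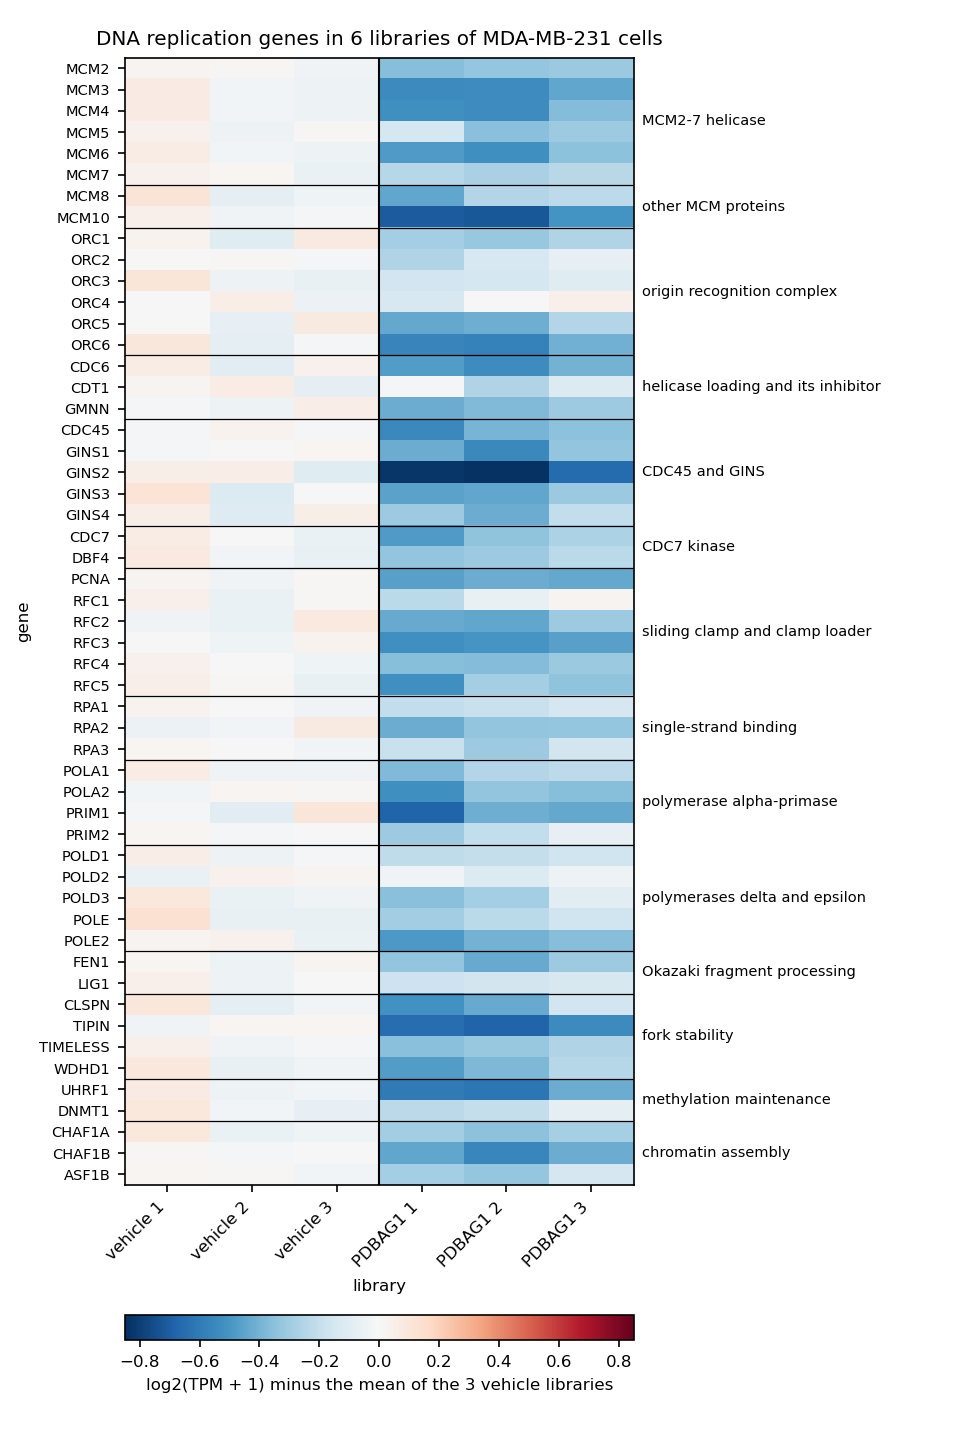
Heat map of the 53 genes (rows, grouped by role) in the 6 libraries (columns), coloured by log2(TPM + 1) minus the mean of the 3 vehicle libraries. Blue cells (lower than vehicle) fill nearly all of the PDBAG1 columns, while ORC4, CDT1, RFC1 and POLD2 have a treated library at or near the vehicle level.

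Summed over the 53 genes, the vehicle libraries held 3841, 3707 and 3744 TPM and the PDBAG1 libraries 2906, 2926 and 3091 TPM, a change of -21.0% in the mean. Within the treated group PDBAG1 replicate 3 was the highest library for 46 of the 53 genes. Without it 48 of the 53 genes fell (16.5% of all genes tested), and 4 of them passed the 1.5-fold limit. Within the vehicle group replicate 1 was the highest library for 35 of the 53 genes. Without vehicle replicate 1, 43 of the 53 genes fell (13.6% of all genes tested), and their median log2 fold change was -0.33. In RNA from whole cultures, fewer cells in S phase and less of these transcripts per cell cannot be told apart. Among 15 mitotic genes, which mark dividing cells, 9 fell and 0 rose, whereas 15.9% of all genes tested fell and 21.7% rose. The 15 had a median log2 fold change of -0.22 and sums of 2485 to 2612 TPM with vehicle and 2042 to 2232 TPM with PDBAG1. Their part in the lower replication transcripts was not tested. CDC20 had the lowest log2 fold change of the 15 mitotic genes (-0.47, adjusted p = 4.71e-07 by limma). CCNB1, AURKA and TOP2A fell with -0.32, -0.31 and -0.30. CENPE and CENPF had log2 fold changes of 0.12 and 0.09 and did not pass. MKI67, which encodes the proliferation antigen Ki-67, was at 110.2, 92.1 and 93.5 TPM with vehicle. With PDBAG1 it was at 84.3, 95.95 and 104.7 TPM, with overlapping groups (adjusted p = 0.614 by limma).

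The 6 subunits of the MCM2-7 helicase all fell, with log2 fold changes from -0.50 to -0.25. MCM3 (chromosome 6, 52264014 to 52284881, GRCh38, GENCODE v44) fell most, from 181, 170.3 and 167 TPM with vehicle to 118, 119 and 127 TPM with PDBAG1. Its log2 fold change was -0.50 ± 0.05 (SE; adjusted p = 1.94e-06 by limma). MCM7, the most abundant subunit, fell least: the vehicle libraries held 204, 201 and 191 TPM and the PDBAG1 libraries 167, 164 and 169 TPM (log2 fold change -0.25 ± 0.04 SE, adjusted p = 0.00028 by limma). The groups did not overlap for any subunit. The change in mean TPM was -28.3% for MCM4, -27.3% for MCM6, -21.1% for MCM2 and -17.3% for MCM5. Exons of another gene on the other strand lie over 23.6% of the exon bases of MCM2, and whether the libraries kept the strand is not given in the sources used here. Although the subunits form a ring with 1 copy of each, their transcripts did not stand at 1 level, and MCM7 was 4.62-fold above MCM6 after PDBAG1.

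MCM10 and MCM8 are named for their relation to the helicase but are not part of its ring. MCM10, which helps to activate the CMG helicase, was at 29.2, 27.6 and 28.0 TPM with vehicle and at 17.0, 16.8 and 19.6 TPM with PDBAG1. Its log2 fold change of -0.64 ± 0.07 (SE; adjusted p = 9.64e-06 by limma) was the second lowest of the 53 genes. MCM8, which acts with MCM9 in recombination repair, fell by 19.3% in mean TPM (log2 fold change -0.30). The level of MCM10 relative to MCM2 was 0.386, 0.368 and 0.384 in the vehicle libraries and 0.294, 0.284 and 0.328 in the PDBAG1 libraries, without overlap.

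Of the origin recognition complex, ORC1, ORC5 and ORC6 fell and ORC2, ORC3 and ORC4 did not pass the test, and differences between subunits were not tested. ORC6, its smallest subunit, went from 48.4, 42.5 and 44.8 TPM to 30.3, 29.9 and 33.8 TPM (log2 fold change -0.52 ± 0.06 SE, adjusted p = 3.68e-05 by limma). ORC1, the subunit that is degraded after G1 phase in human cells, fell by 19.5% from the lowest level of the complex, 14.3 ± 0.946 TPM (SD, n = 3), and ORC5 fell by 23.1%. ORC4, one of the subunits of the stable core, was at 32.7, 34.1 and 31.8 TPM with vehicle and at 29.8, 32.7 and 33.9 TPM with PDBAG1, so the groups overlapped (log2 fold change -0.03 ± 0.06 SE, adjusted p = 0.71 by limma).

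For ORC2 the vehicle libraries held 23.5, 23.7 and 23.3 TPM and the PDBAG1 libraries 19.6, 21.3 and 22.3 TPM (log2 fold change -0.15 ± 0.06 SE, adjusted p = 0.075 by limma). For ORC3 they held 53.2, 47.9 and 47.4 TPM and 44.1, 44.6 and 46.0 TPM (log2 fold change -0.14 ± 0.06 SE, adjusted p = 0.0703 by limma). All treated libraries lay below all vehicle libraries in both genes, by little. The level of ORC1 relative to ORC2 was 0.620, 0.558 and 0.646 with vehicle and 0.587, 0.528 and 0.528 with PDBAG1, so the groups overlapped, whereas that of ORC6 relative to ORC2 was 2.06, 1.79 and 1.92 and then 1.55, 1.41 and 1.52, without overlap. ORC2 and ORC3 both passed the threshold under median-of-ratios scaling (log2 fold changes of -0.19 and -0.18), under quantile normalization and with the length and GC trends removed, and ORC2 also without PDBAG1 replicate 3. The summed level of MCM2-7 relative to the summed level of ORC1 to ORC6 was 3.41, 3.48 and 3.34 in the vehicle libraries and 3.24, 3.08 and 3.05 in the PDBAG1 libraries, without overlap.

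Of the other licensing factors, CDC6 and GMNN fell and CDT1 did not pass. CDC6, the ATPase that joins ORC to load the helicase, went from 104, 93.2 and 102 TPM to 71.4, 68.6 and 75.4 TPM (log2 fold change -0.47 ± 0.05 SE, adjusted p = 1.75e-05 by limma). CDT1, which brings MCM2-7 to the origin, was at 39.4, 40.7 and 36.5 TPM and at 38.5, 32.3 and 35.7 TPM, with overlapping groups (log2 fold change -0.13 ± 0.07 SE, adjusted p = 0.156 by limma). It passed the threshold without PDBAG1 replicate 1, with a log2 fold change of -0.19, and with the length and GC trends removed, with -0.24. GMNN encodes geminin, the inhibitor of CDT1, and fell by 22.6% in mean TPM. The ratio of CDT1 to GMNN in TPM was 0.304, 0.321 and 0.269 with vehicle and 0.395, 0.321 and 0.339 with PDBAG1, so that the groups touched. That of CDC6 to CDT1 was 2.65, 2.29 and 2.80 and then 1.86, 2.12 and 2.11, without overlap.

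**Figure D2:**
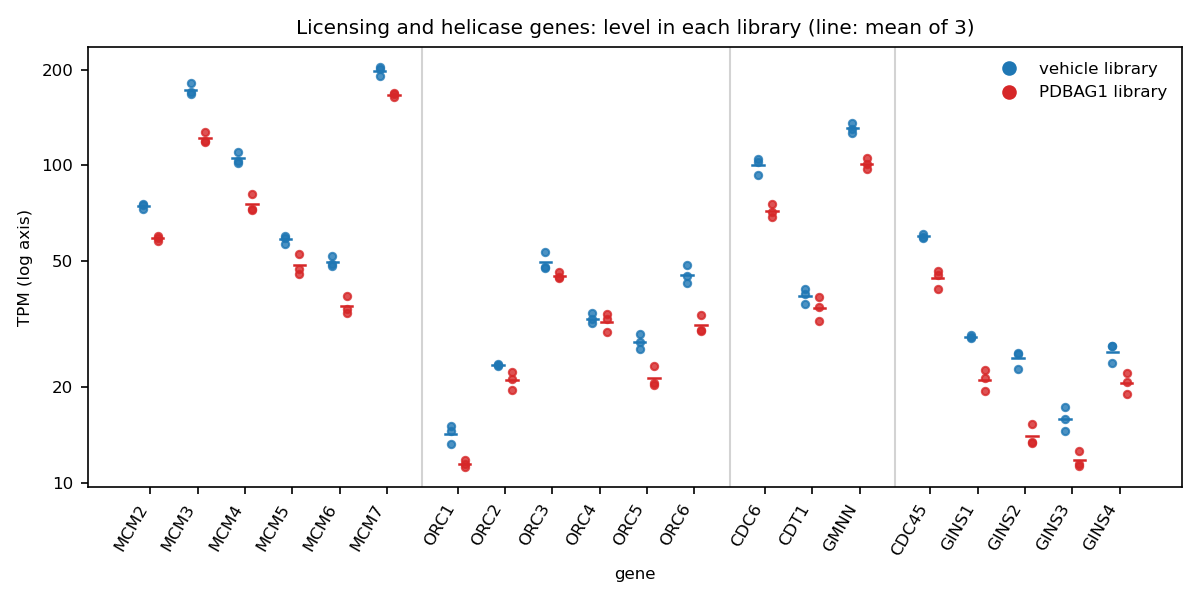
Level in TPM (log axis) of the MCM2-7, ORC, loading and CMG genes in each library, with vehicle in blue, PDBAG1 in red and a line at the mean of 3. The MCM2-7, CDC45 and GINS points separate by treatment in all 11 genes, whereas the points of ORC4 and CDT1 overlap.

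CDC45 and the 4 GINS subunits, which convert the loaded ring into the CMG helicase, all fell, with a median log2 fold change of -0.43. GINS2 (chromosome 16, 85676198 to 85690073, GRCh38, GENCODE v44) had the lowest fold change of the 53 genes and ranked number 21 from the bottom of all genes tested. The vehicle libraries held 25.5, 25.7 and 22.8 TPM and the PDBAG1 libraries 13.4, 13.3 and 15.3 TPM (log2 fold change -0.77 ± 0.07 SE, adjusted p = 3.24e-06 by limma), a change of -43.2% in mean TPM. GINS4 moved least in this class, from 27.0, 23.9 and 26.9 TPM to 20.7, 19.1 and 22.2 TPM (log2 fold change -0.31), and 23.4% of its exon bases lie under exons of other genes on the other strand. CDC45, GINS1 and GINS3 lay between them, with changes of -26.1%, -26.8% and -26.1% in mean TPM. The GINS subunits form a complex with 1 copy of each, and the level of GINS2 relative to GINS3 was 1.47, 1.76 and 1.43 with vehicle and 1.19, 1.17 and 1.22 with PDBAG1. Both kinase genes fell. CDC7 went from 40.7, 38.8 and 37.3 TPM to 27.6, 30.5 and 32.2 TPM (log2 fold change -0.36), and DBF4 fell by 18.6%. The level of DBF4 relative to CDC7 was 1.39, 1.35 and 1.36 with vehicle and 1.52, 1.403 and 1.41 with PDBAG1, without overlap.

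The promoters of these genes were searched for E2F-type motifs, the letters that E2F factors are known to bind. RefSeq promoters (GRCh38.p14, 250 bases before to 50 bases after the start of transcription) were matched for 47 of the 53 genes by gene identifier, and MCM4, MCM5, GINS4, RPA2, RPA3 and POLD3 were not matched. The search on both strands was for the letters TTCCCGC, for the related runs TTGGCGC or TTCGCGC, and lastly for the run TTGCCGC. These can overlap each other on opposite strands and can share bases with CCAAT. Of the 47 genes 35 held at least 1 match in a promoter (74.5%), against 25.2% of the 10296 genes tested with a promoter and 12.97% of all 35116 promoters of this length in the table. The promoters printed here are those of the 3 genes with the lowest fold change that hold a match, with matches in capitals. Also printed are 3 of the 6 genes with a promoter that did not pass the test. These do not follow the order of fold changes, since CDT1 (-0.13) is shown and RFC1 (-0.09, 2 matches) is not. Where the table holds several starts (TIPIN, UHRF1 and ORC4), 1 is given. For TIPIN and UHRF1 it was chosen among the starts that hold a match.
GINS2: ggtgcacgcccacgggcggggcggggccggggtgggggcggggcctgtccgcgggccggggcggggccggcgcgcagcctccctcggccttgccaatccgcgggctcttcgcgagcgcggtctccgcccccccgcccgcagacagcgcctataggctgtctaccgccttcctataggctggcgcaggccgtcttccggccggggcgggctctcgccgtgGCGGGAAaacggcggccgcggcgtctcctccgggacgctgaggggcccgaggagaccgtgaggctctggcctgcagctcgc
TIPIN: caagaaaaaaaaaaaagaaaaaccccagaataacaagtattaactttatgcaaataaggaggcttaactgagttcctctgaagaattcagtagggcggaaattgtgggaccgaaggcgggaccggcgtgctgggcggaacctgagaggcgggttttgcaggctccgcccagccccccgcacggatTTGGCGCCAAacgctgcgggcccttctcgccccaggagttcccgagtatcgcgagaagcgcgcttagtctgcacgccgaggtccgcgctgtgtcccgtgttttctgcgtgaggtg
UHRF1: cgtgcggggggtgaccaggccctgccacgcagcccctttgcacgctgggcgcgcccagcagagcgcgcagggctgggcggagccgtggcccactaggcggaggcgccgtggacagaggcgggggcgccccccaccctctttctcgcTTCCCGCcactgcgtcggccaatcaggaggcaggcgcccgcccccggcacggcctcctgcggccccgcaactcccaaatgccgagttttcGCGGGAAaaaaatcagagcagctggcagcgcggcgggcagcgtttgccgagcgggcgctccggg
CDT1: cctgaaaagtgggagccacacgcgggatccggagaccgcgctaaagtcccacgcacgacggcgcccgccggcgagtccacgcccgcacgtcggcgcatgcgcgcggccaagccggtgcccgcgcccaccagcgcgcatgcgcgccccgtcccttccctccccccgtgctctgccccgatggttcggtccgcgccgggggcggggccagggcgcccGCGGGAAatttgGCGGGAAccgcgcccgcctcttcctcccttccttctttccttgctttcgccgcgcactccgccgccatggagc
POLD2: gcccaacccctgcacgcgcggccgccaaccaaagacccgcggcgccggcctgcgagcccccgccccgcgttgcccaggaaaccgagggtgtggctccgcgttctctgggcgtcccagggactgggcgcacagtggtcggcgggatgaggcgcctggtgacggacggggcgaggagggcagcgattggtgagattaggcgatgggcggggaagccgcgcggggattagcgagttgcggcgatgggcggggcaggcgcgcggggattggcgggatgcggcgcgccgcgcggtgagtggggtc
ORC4: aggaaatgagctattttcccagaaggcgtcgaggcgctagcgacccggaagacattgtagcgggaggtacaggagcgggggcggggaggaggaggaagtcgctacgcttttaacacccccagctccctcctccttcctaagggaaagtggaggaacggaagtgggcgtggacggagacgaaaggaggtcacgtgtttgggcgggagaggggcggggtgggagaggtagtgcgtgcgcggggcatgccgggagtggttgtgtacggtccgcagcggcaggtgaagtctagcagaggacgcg

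These windows are chr16:85688905-85689204 on the minus strand for GINS2, chr15:66356636-66356935 on the minus strand for TIPIN, chr19:4909251-4909550 on the plus strand for UHRF1, chr16:88803539-88803838 on the plus strand for CDT1, chr7:44123499-44123798 on the minus strand for POLD2 and chr2:148020688-148020987 on the minus strand for ORC4. The match of GINS2 began 31 bases before the start, and those of CDT1 began 35 and 23 bases before it. In TIPIN the motif was read on both strands over 1 stretch, and UHRF1 held 2 separate matches. POLD2 and ORC4 held 0 matches in the windows shown, which says only that these letters are not there. A match was held by 32 of the 41 genes that fell and by 3 of the 6 that did not pass (CDT1, ORC3 and RFC1), while MCM10, ORC5, ORC6, CDC45, DBF4, PRIM2, POLD1, FEN1 and ASF1B fell without one.

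Genes of the list with a match had a median log2 fold change of -0.37 and those without one -0.27. Over all genes tested the medians were -0.01 with and 0.04 without a match, and 21.2% and 14.5% fell. The CCAAT motif was in promoters of 28 of the 47 genes (59.6%, against 43.2% of genes tested), and the CHR motif of late cell cycle genes (TTTGAA or TTCGAA) in 3 of the 47 (6.38%, against 15.7%). These shares describe letters in a window and were not tested.

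At the fork, PCNA and 4 of the 5 clamp loader subunits fell. PCNA, the most abundant of the 53 transcripts, went from 377, 363 and 375 TPM to 269, 277 and 274 TPM (log2 fold change -0.44 ± 0.04 SE, adjusted p = 6.91e-07 by limma). It had the smallest adjusted p of the list. As for 10 of the 53 genes in all (ORC1, DBF4, PCNA, RFC3, RFC5, RPA2, RPA3, POLD2, FEN1 and TIPIN), pseudogenes named after it could share its reads, and MCM8, POLA2, PRIM1, POLD1, POLD3, FEN1, DNMT1 and CHAF1B share exon bases with another gene annotated on the same strand. For POLA2 these are CDC42EP2 and a further gene entry that is also named POLA2. RFC3 fell most among the loader subunits, from 53.9, 52.5 and 54.9 TPM to 37.1, 37.7 and 38.8 TPM (log2 fold change -0.50 ± 0.05 SE, adjusted p = 5.43e-06 by limma). RFC2, RFC4 and RFC5, the other small subunits, fell by 24.1%, 21.7% and 23.6%.

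RFC1, the large subunit of the loader, did not pass the test, and its difference from the small subunits was not tested. It was at 30.1, 28.0 and 29.4 TPM with vehicle and at 24.8, 27.9 and 29.7 TPM with PDBAG1, with overlapping groups (log2 fold change -0.09 ± 0.07 SE, adjusted p = 0.337 by limma). Its level relative to RFC4 was 0.246, 0.233 and 0.252 with vehicle and 0.267, 0.3005 and 0.310 with PDBAG1, without overlap.

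The 3 subunits of RPA, which coats single-stranded DNA, all fell. RPA2 moved most, from 93.6, 95.6 and 102 TPM to 72.4, 76.8 and 77.3 TPM (log2 fold change -0.36, adjusted p = 8.07e-05 by limma), and RPA1, the large DNA-binding subunit, moved least, from 131, 128 and 126 TPM to 111, 112 and 116 TPM (log2 fold change -0.18, adjusted p = 0.00386 by limma). RPA3 fell by 14.3%. The groups did not overlap in any of the 3.

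All 4 genes of polymerase alpha-primase fell, the enzyme that lays down the RNA-DNA primers. PRIM1, the catalytic primase subunit, went from 53.7, 51.0 and 58.5 TPM to 33.5, 40.6 and 40.0 TPM (log2 fold change -0.51 ± 0.07 SE, adjusted p = 0.000128 by limma). PRIM2, its partner, went from 42.2, 41.2 and 41.8 TPM to 33.5, 36.0 and 39.6 TPM (log2 fold change -0.20 ± 0.06 SE, adjusted p = 0.0235 by limma). The libraries did not overlap in either gene, but the call of PRIM2 was lost in 7 of 14 alternative analyses (adjusted p of up to 0.0828), with no filter, with no variance trend and without any 1 of the vehicle libraries or PDBAG1 replicate 1 or 2. POLA1 and POLA2, the catalytic and the accessory polymerase subunit, fell by 19.1% and 25.5%.

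Of the 5 listed genes of the leading-strand polymerase epsilon and the lagging-strand polymerase delta 4 fell, and POLE2 fell most of these 5. POLE2, the second subunit of polymerase epsilon, went from 107, 108 and 102 TPM to 75.1, 79.8 and 82.0 TPM (log2 fold change -0.42 ± 0.05 SE, adjusted p = 1.95e-05 by limma), whereas POLE, the catalytic subunit, fell by 15.3%. The level of POLE2 relative to POLE was 2.69, 3.12 and 2.93 with vehicle and 2.55, 2.59 and 2.55 with PDBAG1, so the libraries did not overlap. POLD1 and POLD3, the catalytic and a regulatory subunit of polymerase delta, fell by 13.1% and 16.0%. POLD2, its second subunit, was at 213, 227 and 225 TPM and at 217, 204 and 215 TPM, with overlapping groups (log2 fold change -0.06 ± 0.04 SE, adjusted p = 0.252 by limma). It passed with the length and GC trends removed, at a log2 fold change of -0.11. The calls of POLE (adjusted p of 0.0555 without vehicle replicate 1) and POLD1 (0.0514 at most, with the replicate number as a block or without PDBAG1 replicate 2) were close to the threshold.

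FEN1 and LIG1 finish the Okazaki fragments of the lagging strand, and both fell. FEN1, the flap nuclease, went from 201, 192 and 202 TPM to 157, 147 and 159.8 TPM (log2 fold change -0.36 ± 0.04 SE, adjusted p = 2.79e-05 by limma). LIG1, the ligase, fell by 10.6%, with 32.5 to 33.5 TPM after PDBAG1 against 35.7 to 38.0 TPM (log2 fold change -0.16, adjusted p = 0.033 by limma). The call of LIG1 was lost with the replicate block and without vehicle replicate 1, vehicle replicate 3, PDBAG1 replicate 1 or PDBAG1 replicate 2.

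**Figure D3:**
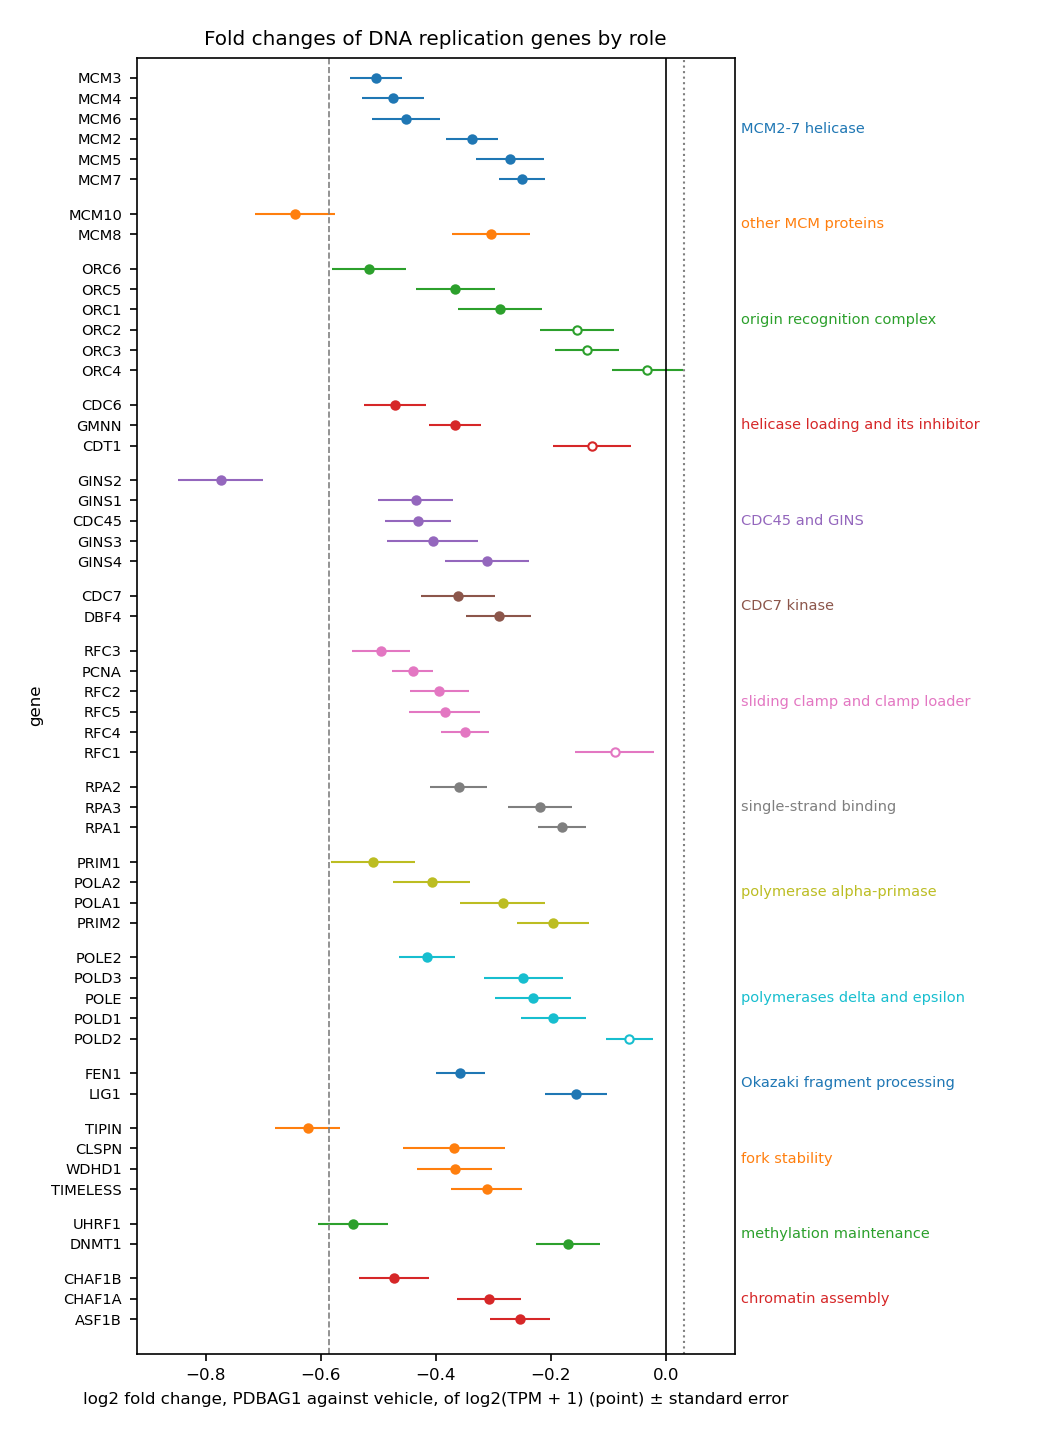
Log2 fold change of each gene (PDBAG1 against vehicle, log2(TPM + 1) scale) with its standard error, grouped by role. Filled points passed an adjusted p of 0.05 and the 6 open points (ORC2, ORC3, ORC4, CDT1, RFC1 and POLD2) did not. The dotted line is the median of all genes tested and the dashed line a 1.5-fold fall.

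The 4 fork stability genes fell, with TIPIN in the lead. TIPIN, the partner of TIMELESS in the complex that couples helicase and polymerases, went from 41.8, 43.1 and 43.1 TPM to 26.9, 26.2 and 29.0 TPM (log2 fold change -0.62 ± 0.06 SE, adjusted p = 1.99e-06 by limma). TIMELESS itself moved less, from 24.9, 23.6 and 23.7 TPM to 18.6, 19.0 and 19.98 TPM (log2 fold change -0.31 ± 0.06 SE, adjusted p = 0.00138 by limma). CLSPN, which encodes the checkpoint adaptor claspin, fell by 23.3%, and WDHD1, which links the CMG helicase to polymerase alpha, fell by 22.9%.

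Behind the fork, UHRF1 and DNMT1 copy DNA methylation to the new strand. UHRF1, which recognises hemimethylated DNA, went from 61.6, 57.1 and 57.7 TPM to 38.5, 38.1 and 43.7 TPM (log2 fold change -0.54 ± 0.06 SE, adjusted p = 1.37e-05 by limma). DNMT1, the methyltransferase that it recruits, was at 94.2, 87.0 and 84.1 TPM and at 75.3, 76.7 and 83.4 TPM (log2 fold change -0.17 ± 0.06 SE, adjusted p = 0.0261 by limma), and its call was lost in 7 of 14 alternative analyses, with no filter, with no variance trend, with the replicate block and without vehicle replicate 1 or 2 or PDBAG1 replicate 1 or 2. The level of UHRF1 relative to DNMT1 was 0.654, 0.656 and 0.686 with vehicle and 0.511, 0.497 and 0.524 with PDBAG1, without overlap.

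All 3 chromatin assembly genes fell. CHAF1B, a subunit of the histone chaperone CAF-1, went from 29.5, 29.1 and 29.2 TPM to 21.3, 19.6 and 21.6 TPM (log2 fold change -0.47 ± 0.06 SE, adjusted p = 4.5e-05 by limma). CHAF1A, its largest subunit, fell by 19.7%. ASF1B, which hands histones to CAF-1, went from 99.4, 99.2 and 96.6 TPM to 80.2, 78.2 and 89.2 TPM (log2 fold change -0.25 ± 0.05 SE, adjusted p = 0.00187 by limma).

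A further 39 genes of the same process that were not in the list were read for comparison. Of these 26 fell, 1 rose and 12 did not pass, whereas 15.9% of all genes tested fell and 21.7% rose. The median log2 fold change of the 39 was -0.25. The largest falls were those of CDCA7, a partner of HELLS (31.3 ± 1.08 to 18.1 ± 0.396 TPM, log2 fold change -0.76), DSCC1 of an alternative clamp loader (-0.66), TONSL, which acts in the repair of stalled forks (-0.54), and the chromatin remodeller HELLS (-0.53). POLD4, the smallest subunit of polymerase delta, was the 1 gene that rose, from 37.4, 34.2 and 35.4 TPM to 55.8, 52.9 and 52.7 TPM (log2 fold change 0.58 ± 0.05 SE, adjusted p = 2.57e-06 by limma). The 4 subunits of polymerase delta gave 2 falls, 1 rise and 1 difference that did not pass. POLE3 and POLE4, further subunits of polymerase epsilon, fell with log2 fold changes of -0.45 and -0.23, beside -0.42 for POLE2. TICRR and MCM9, which are near 7 and 4 TPM, had log2 fold changes of 0.03 and -0.01 and did not pass, and neither did CHTF8 of the alternative clamp loader (-0.03).

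**Figure D4:**
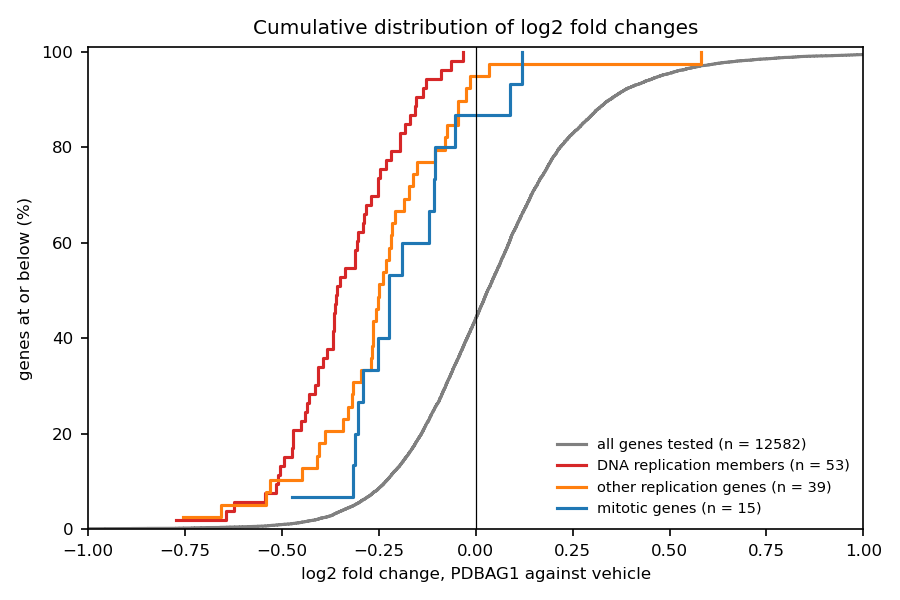
Cumulative share of genes (%) at or below each log2 fold change for all 12582 genes tested, the 53 replication genes, the 39 other replication genes and the 15 mitotic genes. The curve of the 53 genes lies wholly left of 0 with a median of -0.36, and those of the other replication genes and mitotic genes have medians of -0.25 and -0.22.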

How the data were processed

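RNA-seq libraries of MDA-MB-231 cells (3 vehicle, 3 PDBAG1) were grouped by the sample titles. According to the methods, the authors prepared mRNA libraries, ran them on a BGISEQ-500 instrument and aligned the cleaned reads to GRCh38 using HISAT2. The submitters' processing notes list HISAT2 2.0.4, Bowtie2 2.2.5 and RSEM 1.2.12. The methods name FPKM, but the values the authors deposited are TPM per the file headers, 1 table per library, rounded to 2 decimals. The step to TPM and the annotation are not given in the sources used here, and TPM keeps no depth, so precision rests on 3 libraries per group.

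Genes with at least 1 TPM in 3 or more libraries (12582 of 17631) were tested on log2(TPM + 1) with limma 3.58.1 in R 4.3.3 (lmFit, eBayes with a variance trend), with Benjamini-Hochberg adjustment over all of them. Fold changes on this scale understate changes of low genes. TPM are means ± SD, and percent changes are of mean TPM. The 53 genes and all lists and motifs were chosen with earlier results of these data known. Within each role the genes with the largest and smallest fold change (in roles of 2 genes, at least the largest) and every gene that did not pass are given per library. The other genes named are the largest called changes of their list, up to 3 that did not pass, and the further subunits of polymerase epsilon. Ratios of levels were computed within each library for a few pairs of genes or complexes picked by hand, and were not tested. A ratio without overlap partly restates the fold changes of its pair, and such ratios were not counted over other pairs. Only the limma fit was checked on simulated log2 values. Positions are from GENCODE v44 and promoters from RefSeq. Alternatives were no filter, a filter in every library, a pseudocount of 0.1, the replicate block, 2 other scalings, no variance trend, each library left out and, chosen after the data were seen, removal of trends with transcript length and GC content (12433 genes).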

Additional observations from a re-analysis of the deposited data

How the results depend on the processing

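Across the 14 alternatives, 43 to 51 of the 53 replication genes fell and 0 rose, and 42 of the 47 called genes passed in every one. With each library left out the count was 43 to 48 and the median log2 fold change -0.38 to -0.32. A fold limit of 2 left 0 genes. ORC4 was the 1 gene whose direction turned, to a log2 fold change of 0.019 without PDBAG1 replicate 1. Its range with each library left out was -0.071 to 0.019. Median-of-ratios scaling moved the median of all genes tested from 0.03 to -0.01 and the share of all calls that were lower from 42.2% to 52.8%. It was 53.3% under quantile normalization and 50.4% with the length and GC trends removed, where 49 and 51 of the 53 genes fell (49 under median-of-ratios scaling). Of all genes tested, 15.9% fell in the main fit. In the alternatives this share ran from 9.62% (no filter) to 22.3% (length and GC trends removed). Under the fit with a replicate block 44 of the 53 genes fell, and LIG1, POLD1 and DNMT1 lost their call. The numbers have no stated origin, and the deviations of libraries with the same number correlated at -0.207, 0.0118 and -0.0785, so they were not taken as pairs. Since TPM keeps no depth, it is not known how far counting error limits the low genes.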
